A study of Mus musculus with 5 samples.

Results

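The Hedgehog genes described here are the ligand genes Shh, Ihh and Dhh, the receptor gene Ptch1, the signal transducer gene Smo, the transcription factor genes Gli1, Gli2 and Gli3, and Hhip, which encodes an inhibitor that binds the ligands. They were chosen by symbol: every probe set that the platform annotation assigns to a single one of these symbols was taken, which gave 21 probe sets of 9 genes among 34958 probe sets of 18194 genes. RNA came from GFP-positive cells sorted from lungs of SPC-GFP mouse pups at postnatal day 2, offspring of the transgenic line mated with outbred ICR mice. SPC commonly stands for surfactant protein C, a product of alveolar type 2 cells, which make surfactant. The samples form 1 group of 5 biological replicates with 1 one-colour Affymetrix array each, so no condition could be compared. Titles call the cells alveolar type 2 cells and the design text calls them ciliated cells. Neither the promoter fragment behind the transgene nor the number of pups per replicate is given in the sources used here. The p-values cover these 5 samples alone. They are not a measure of the replicate variation of each gene by itself. Variances were moderated with those of the other probe sets, and the background of each array was taken as fixed.

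Hedgehog ligands are secreted proteins that bind Patched receptors. In the absence of ligand, PTCH1 holds the membrane protein SMO inactive, and GLI proteins, GLI3 above all, are cut to repressor forms. When ligand binds, SMO acts at the primary cilium, GLI proteins activate transcription, and Gli1, Ptch1 and Hhip are induced, so these genes serve as readouts of the pathway. In the developing lung, Shh is made by the epithelium, and the responding cells are mainly those of the adjacent mesenchyme.

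Values are deposited log2 signals. A probe set was called above background when its values exceeded the 95th percentile of 84 probe sets of chemosensory receptor genes on the same arrays, by a one-sided moderated test in limma with an adjusted p under 0.05. This background lay between 5.33 and 5.64 per array. A stricter one, the 95th percentile of 55 probe sets of genes restricted to other organs, lay between 6.83 and 7.66. Signals of different probe sets were not ranked against each other, and the number of arrays limits the precision.

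The 8 alveolar type 2 markers were above both backgrounds, with Sftpc at 14.67 ± 0.053 and Abca3 at 14.39 ± 0.072 (SD, n = 5), and their mean level spanned 14.17 to 14.30 over the arrays. These calls are not particular to type 2 cells: the 8 alveolar type 1 markers (Ager, 14.68 ± 0.015) and the 4 club cell markers (Scgb1a1, 14.50 ± 0.086) passed both as well, as did the 8 ciliated, 8 endothelial and 8 immune markers. The arrays differed in markers of other cells. The 8 fibroblast markers averaged 9.56 in replicate 3 against 10.26 to 10.80 in the others, and the mean of the 8 immune markers was lowest there too, over a range of 0.95, with 7 of the 8 lowest in that replicate. The 3′ to 5′ difference of the array's Actb control was 0.845 in that replicate against 0.542 to 0.599 in the others. That of the Gapdh control was also largest there, at 1.67, but close to the 1.60 of replicate 5 and the 1.52 of replicate 2. Replicate 1 had the highest ciliated marker mean, 9.84 against 8.26 to 9.13, and the highest bioB and bioC hybridisation controls, 12.57 against 11.63 to 11.79.

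In total 19 of the 21 probe sets, and at least 1 probe set of each of the 9 genes, lay above the receptor background. Over all features tested, 72.2% of probe sets and 75.5% of genes did, and no test was made of the difference between these shares. A gene counted if any of its probe sets did, which favours genes with more of them. The 9 Hedgehog genes, with 21 probe sets, have more per gene than the whole series, with 34958 for 18194 genes. The median excess over background was 1.87 for the 21 probe sets and 2.47 for the 34874 probe sets tested. Against the organ-restricted background 9 of the 21 probe sets and 5 genes (Shh, Ptch1, Smo, Gli3 and Hhip) were called, where 53.8% of probe sets and 61.9% of genes were. The calls of Ihh, Dhh, Gli1 and Gli2 therefore depend on which background is used.

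**Figure D1:**
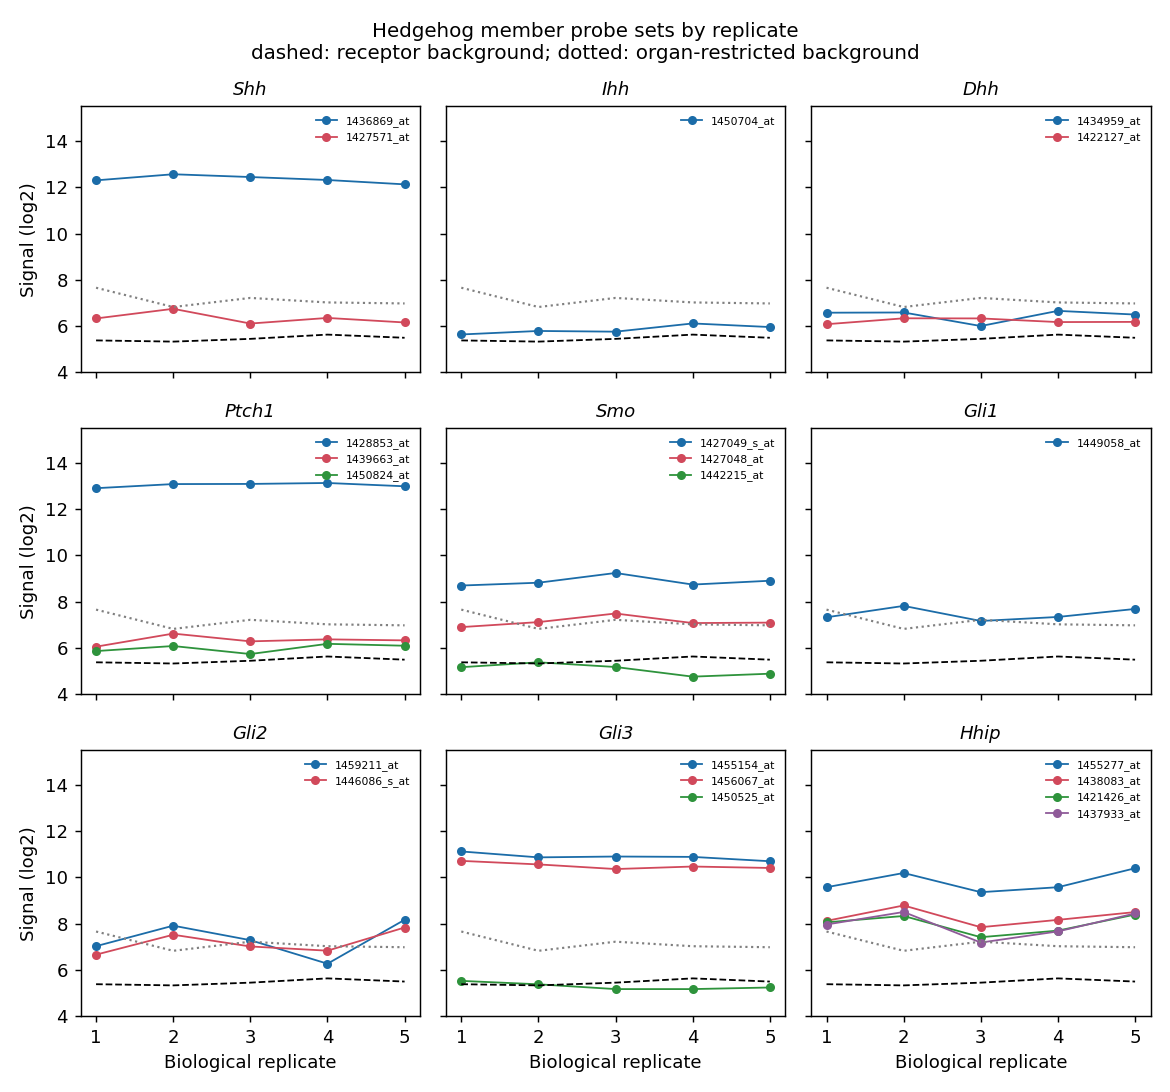
Log2 signal (vertical axis) of every Hedgehog probe set in biological replicates 1 to 5 (horizontal axis), a panel per gene and a colour per probe set; lines join the values of 1 probe set and the replicates have no order. The dashed line is the receptor background of each array and the dotted line the organ-restricted one: Shh 1436869_at, Ptch1 1428853_at and 2 Gli3 probe sets lie far above both, while Ihh and Dhh lie between them.

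Among the ligand genes, only Shh had a probe set above both backgrounds. Its probe set 1436869_at read 12.30, 12.56, 12.44, 12.31 and 12.13 in replicates 1 to 5, a mean of 12.35 ± 0.16 (SD, n = 5). The 5 values lay within 1.35-fold of each other, with replicate 2 highest and replicate 5 lowest. The mean was 6.89 log2 units above background (SE 0.085, limma adjusted p = 8.37e-20). The other Shh probe set, 1427571_at, read 6.33, 6.75, 6.11, 6.36 and 6.16, which was 0.88 above the receptor background (adjusted p = 1.48e-05) and below the organ-restricted one. The 2 Shh probe sets thus disagree on how far the gene stands above background.

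Ihh, the Indian hedgehog ligand of cartilage and gut, and Dhh, the desert hedgehog ligand of Schwann and Sertoli cells, were near background. Ihh has 1 probe set, which read 5.64, 5.79, 5.76, 6.12 and 5.96 (5.86 ± 0.19), and exceeded the receptor background by 0.39 (SE 0.12, limma adjusted p = 0.00373). Dhh read 6.58, 6.59, 6.01, 6.66 and 6.50 with 1434959_at and 6.08, 6.34, 6.33, 6.18 and 6.18 with 1422127_at. Its probe sets exceeded the receptor background by 1.01 and 0.76 (adjusted p = 2.19e-06 and 2.11e-05). In 1434959_at the value of replicate 3 stood below the other 4; without it the SD fell from 0.26 to 0.065. The means of all 3 probe sets were below the organ-restricted background by 0.67 to 1.29. Of the cells that can make these ligands, only cartilage and Schwann cells were looked at by markers here, and other sources were not examined. Above the receptor background was 1 of 4 measured cartilage markers (Col2a1, 0.54 above it, while Acan averaged 5.43 ± 0.23). Of 4 Schwann cell markers 2 were (Sox10, 6.16 ± 0.19, and S100b, 6.08 ± 0.67). No cartilage or Schwann marker passed the organ-restricted background.

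Ptch1 is both the ligand receptor and a gene that the pathway induces. Probe set 1428853_at read 12.91, 13.08, 13.09, 13.13 and 12.99, a mean of 13.04 ± 0.091 that was 7.58 above background (SE 0.064, limma adjusted p = 2.51e-21). Its values lay within 1.17-fold of each other. The other 2 Ptch1 probe sets stayed near background: 1439663_at read 6.06, 6.62, 6.29, 6.38 and 6.33, and 1450824_at read 5.87, 6.09, 5.74, 6.18 and 6.10. They exceeded the receptor background by 0.88 and 0.54 (adjusted p = 7.78e-06 and 0.000516) and lay below the organ-restricted one. As for Shh, the high level of Ptch1 rests on 1 of its probe sets.

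Smo, the membrane protein that passes the signal inwards, was called above the receptor background with 2 of its 3 probe sets. Its probe set 1427049_s_at, of a type that can match several transcripts, read 8.70, 8.82, 9.24, 8.74 and 8.91 (8.88 ± 0.22), 3.42 above background (limma adjusted p = 2.20e-14). Probe set 1427048_at, annotated to the same source record, read 6.91, 7.12, 7.49, 7.08 and 7.10, 1.68 above it (adjusted p = 2.13e-09). Replicate 3 was highest in both, and without it their SDs were 0.092 and 0.099 instead of 0.22 and 0.22. The other probe set, 1442215_at, read 5.17, 5.38, 5.18, 4.76 and 4.89 and was not called (adjusted p = 1).

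Of the Gli transcription factor genes, Gli3 had probe sets above both backgrounds, and Gli1 and Gli2 passed the receptor one alone. Gli3, the main source of GLI repressor, read 11.12, 10.86, 10.90, 10.88 and 10.70 with 1455154_at and 10.71, 10.56, 10.36, 10.47 and 10.41 with 1456067_at. These were 5.43 and 5.04 above background (SE 0.089 and 0.092, limma adjusted p = 2.54e-18 and 1.05e-17), with replicate 1 highest in both and SDs of 0.15 and 0.14. The other Gli3 probe set, 1450525_at, averaged 5.30 ± 0.15 and was not called (adjusted p = 1).

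Gli1, a target of the pathway that amplifies its output, read 7.33, 7.82, 7.17, 7.34 and 7.69 (7.47 ± 0.27). The mean was 2.01 above the receptor background (SE 0.14, limma adjusted p = 4.64e-10) and 0.33 above the organ-restricted one, which did not pass (limma adjusted p = 0.103). In the organ-restricted fit the SE was 0.21 for Gli1 and for both Gli2 probe sets, whose SDs were 0.27, 0.75 and 0.49. The p-values of that fit thus reflect little of each probe set's own spread. Replicates 2 and 5 were high and replicate 3 low, and the 5 values lay within 1.57-fold of each other.

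Gli2, the main GLI activator, varied most. Probe set 1459211_at read 7.03, 7.91, 7.29, 6.27 and 8.17 (7.33 ± 0.75), a 3.73-fold range. Probe set 1446086_s_at, annotated to the same source record, read 6.66, 7.52, 7.01, 6.83 and 7.83 (7.17 ± 0.49), a 2.25-fold range. Both were high in replicates 2 and 5, whereas the lowest value was that of replicate 4 in the first and of replicate 1 in the second. They were 1.87 and 1.71 above the receptor background (limma adjusted p = 6.11e-07 and 5.36e-08) and within 0.19 of the organ-restricted one.

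Hhip encodes a membrane-anchored protein that takes up Hedgehog ligands and so limits the signal. Its probe set 1455277_at read 9.57, 10.19, 9.36, 9.57 and 10.39 (9.82 ± 0.45), 4.36 above background (SE 0.14, limma adjusted p = 2.11e-14). Probe set 1438083_at read 8.12, 8.79, 7.85, 8.16 and 8.50. Probe set 1421426_at read 8.05, 8.33, 7.41, 7.70 and 8.39, and 1437933_at read 7.96, 8.50, 7.18, 7.66 and 8.44. All 4 Hhip probe sets had their 2 highest values in replicates 2 and 5 and their lowest in replicate 3. They passed both backgrounds, by 2.49 to 4.36 for the receptor one and by 0.81 to 2.67 for the other. Replicate 5 exceeded replicate 3 by 2.05-fold, 1.57-fold, 1.97-fold and 2.39-fold in the same order of probe sets.

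The question of which of these genes differed between replicates more than other probe sets of like signal was put to an F test of each variance against the variance limma fitted for its level. At an adjusted p under 0.05, 0 of the 21 probe sets passed (0% of all 34874 did, with and without a mean-variance trend). Tagln, a smooth muscle marker singled out after its value was seen, had a variance ratio of 21.1 and still an adjusted p of 0.774 by this F test. The adjusted test could therefore hardly call any probe set, and its 0 does not show that these genes vary no more than others. Without adjustment 3 of the 21 had a p under 0.05 in this F test, against 5.46% of all probe sets. They were Gli2 1459211_at (variance ratio 9.35, F test adjusted p = 0.821) and the Hhip probe sets 1455277_at (7.58, F test adjusted p = 0.861) and 1437933_at (5.78, F test adjusted p = 0.904). The Gli2 ratio was 4.45 without replicate 4, 14.8 without replicate 3 and 19.1 without the trend. That of Hhip 1455277_at was 4.21 without replicate 5, and that of Hhip 1437933_at was 3.84 without replicate 3 and 10.3 without the trend. The count of 3 became 1 without replicate 5, with Gli2 1459211_at alone left, and 2 without replicate 2 or replicate 4. Without replicate 3 it stayed 3, but Gli2 1446086_s_at took the place of Hhip 1437933_at. The count was also 2 with quantile normalization and 2 without the trend. With probe sets above the median signal alone it was 1 of 9. The median SD of the 19 Hedgehog probe sets above background was 0.22, against 0.17 for all 25180 above it.

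**Figure D2:**
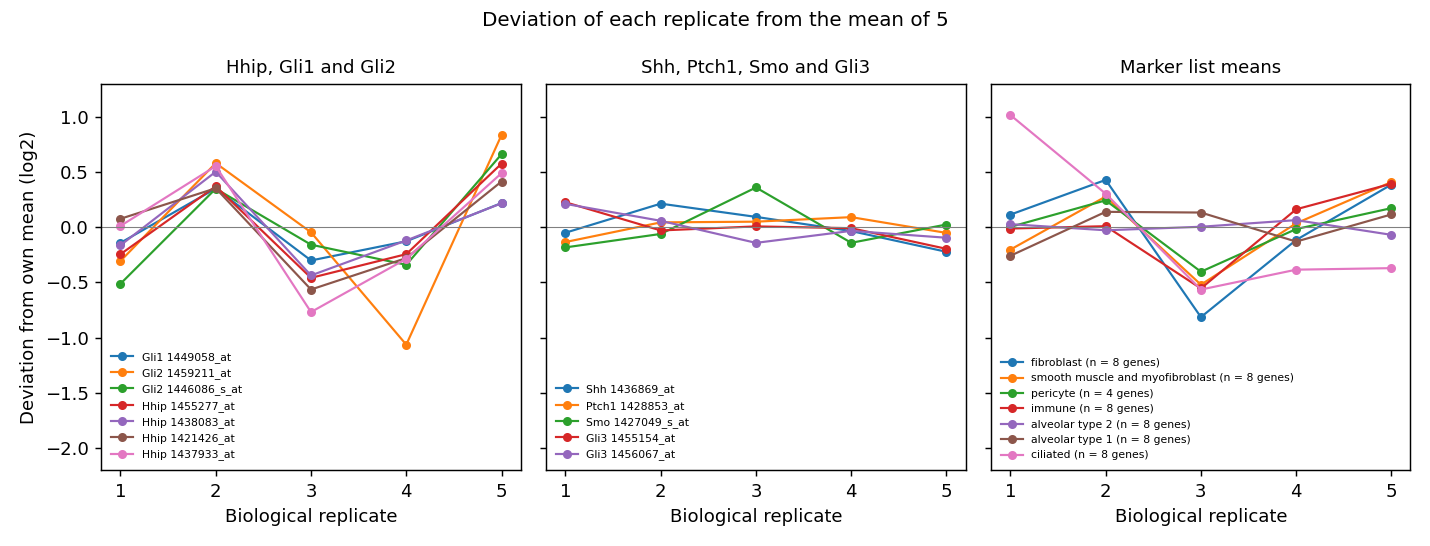
Deviation of each replicate (horizontal axis) from the mean of the 5 arrays, in log2 units, for probe sets of Hhip, Gli1 and Gli2 (left), of Shh, Ptch1, Smo and Gli3 (middle), and for the mean of each marker list (right); lines join the values of 1 probe set or list. Hhip, Gli1 and Gli2 are high in replicates 2 and 5, as are the fibroblast, smooth muscle, pericyte and alveolar type 1 lists. The alveolar type 1 list is high in replicate 3 as well. The plotted probe sets of Shh, Ptch1 and Gli3 stay within 0.23 of their means.

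The order of the replicates was then described for the 19 probe sets above background, a description chosen after the values were seen. Replicates 2 and 5 were the 2 highest in 7 of them, the 4 of Hhip, 1 of Gli1 and 2 of Gli2, against 13.3% of all probe sets above background. In 5 of the 7, those of Hhip and Gli1, replicate 3 was also the lowest, against 5.41% of all. None of the other 12, those of Shh, Ihh, Dhh, Ptch1, Smo and Gli3, had this pair highest. Quantile normalization and median centring gave the same counts for the Hhip, Gli1 and Gli2 probe sets. Probe sets of 1 gene share their RNA, so the 7 stand for 3 genes.

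Marker lists of mesenchymal cells had a similar order. Replicates 2 and 5 were the 2 highest and replicate 3 the lowest in 6 of the 8 smooth muscle and myofibroblast markers, among them Acta2 (12.30, 12.83, 11.89, 12.41 and 12.97), a contractile actin gene, and Myh11 (8.66, 9.16, 7.98, 8.88 and 9.15), its myosin partner. The same held for 3 of the 7 fibroblast markers above background, among them Col3a1 (12.96, 13.32, 12.58, 12.96 and 13.34), and for 1 of 4 pericyte markers. Col1a1 read 13.05, 13.14, 12.58, 12.97 and 13.05. The full order held for 0 of the 8 alveolar type 2, 0 of the 8 alveolar type 1, 0 of the 8 ciliated, 0 of the 8 endothelial and 1 of the 8 immune markers. Gli2 shares only the part with replicates 2 and 5 highest. That part held for 8 of the 8 smooth muscle, 4 of the 7 fibroblast and 2 of the 4 pericyte markers. It also held for 2 of the 8 alveolar type 1 and 1 of the 8 immune markers. The alveolar type 1 list means in replicates 1 to 5 were 12.73, 13.12, 13.12, 12.85 and 13.10. The list means in replicates 1 to 5 were 8.91, 9.39, 8.59, 9.15 and 9.52 for smooth muscle and 10.49, 10.80, 9.56, 10.26 and 10.76 for fibroblasts. Of these lists, 8 of 8 and 7 of 8 markers were above the receptor background. In bulk RNA of a sort, fewer cells of a type and less RNA per cell cannot be told apart, and the part of these cells, or of the 3′ to 5′ difference of replicate 3, in the values of Hhip, Gli1 and Gli2 was not tested. Without replicate 3 the SD of the 4 Hhip probe sets was 0.31 to 0.42, against 0.36 to 0.55 with it.

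By a likeness measured as the root mean square difference of centred values over the 5 arrays, the genes nearest to Gli2 1459211_at, the Hedgehog probe set above background with the largest SD, were Cmklr1 (0.12 log2 units), Grin2c (0.17) and Plekha6 (0.18), among 25178 probe sets above background. Cmklr1 read 5.50, 6.74, 5.93, 4.92 and 6.73 in replicates 1 to 5, near background, and Plekha6 7.74, 8.64, 8.09, 7.32 and 8.66.

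RefSeq promoter windows of GRCm38.p6 matched 7 of the 9 genes; Shh and Gli1 had no entry. The 250 bases upstream of the annotated start are shown for the 2 matched genes whose probe sets above background had replicates 2 and 5 highest, Hhip and Gli2, and for Ptch1, a classical target for which they did not. Capitals mark GC boxes (CCGCCC or its reverse complement GGGCGG). They lie on the minus strand at chr8:80058009-80058258 (Hhip), chr1:119053620-119053869 (Gli2) and chr13:63565736-63565985 (Ptch1), and are written 5′ to 3′ along the gene.
Hhip: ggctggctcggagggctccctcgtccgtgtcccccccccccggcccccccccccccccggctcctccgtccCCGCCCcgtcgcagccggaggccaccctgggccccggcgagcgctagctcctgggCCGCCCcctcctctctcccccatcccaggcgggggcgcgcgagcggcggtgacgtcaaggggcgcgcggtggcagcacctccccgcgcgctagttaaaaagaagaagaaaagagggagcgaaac
Gli2: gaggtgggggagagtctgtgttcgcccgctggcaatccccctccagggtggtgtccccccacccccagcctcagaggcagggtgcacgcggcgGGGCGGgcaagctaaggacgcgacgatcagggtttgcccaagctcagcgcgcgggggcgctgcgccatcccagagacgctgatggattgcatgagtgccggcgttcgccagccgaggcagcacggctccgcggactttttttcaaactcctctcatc
Ptch1: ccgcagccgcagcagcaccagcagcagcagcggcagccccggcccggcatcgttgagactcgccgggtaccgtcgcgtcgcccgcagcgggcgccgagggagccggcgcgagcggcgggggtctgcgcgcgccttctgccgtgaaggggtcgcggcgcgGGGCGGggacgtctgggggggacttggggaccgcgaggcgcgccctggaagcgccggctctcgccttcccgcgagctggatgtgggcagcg
GC boxes occurred 2 times in the Hhip window, 1 time in that of Gli2 and 1 time in that of Ptch1; 32.7% of the 32851 windows in the table hold at least 1. G and C made up 76.0%, 67.2% and 78.4% of these windows, against a median of 52.4% over the table. The GLI binding consensus GACCACCCA (reverse complement TGGGTGGTC) had 0 matches in the 7 windows and is held by 0.225% of all windows, which says only that these letters are not in these stretches.

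The other genes of the pathway were taken from a list by role, of which 36 genes with a single-symbol probe set were analysed here. Of the 36, 34 lay above the receptor background, where 75.5% of all genes did, and 29 above the organ-restricted one, where 61.9% of all genes did. These 2 shares are the background for each count by role that follows, and the differences from them were not tested. The 36 genes, with 84 probe sets, also have more per gene than the whole series, which favours a call by any probe set. By limma's fitted variances 0 of the 36 passed the spread test at an adjusted p under 0.05 (0% of all probe sets did), and 5 did without adjustment (Disp2, Boc, Lrp2, Foxf2 and Ccnd1), against 5.46% of all probe sets. Each gene is given by its probe set of highest mean.

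**Figure D3:**
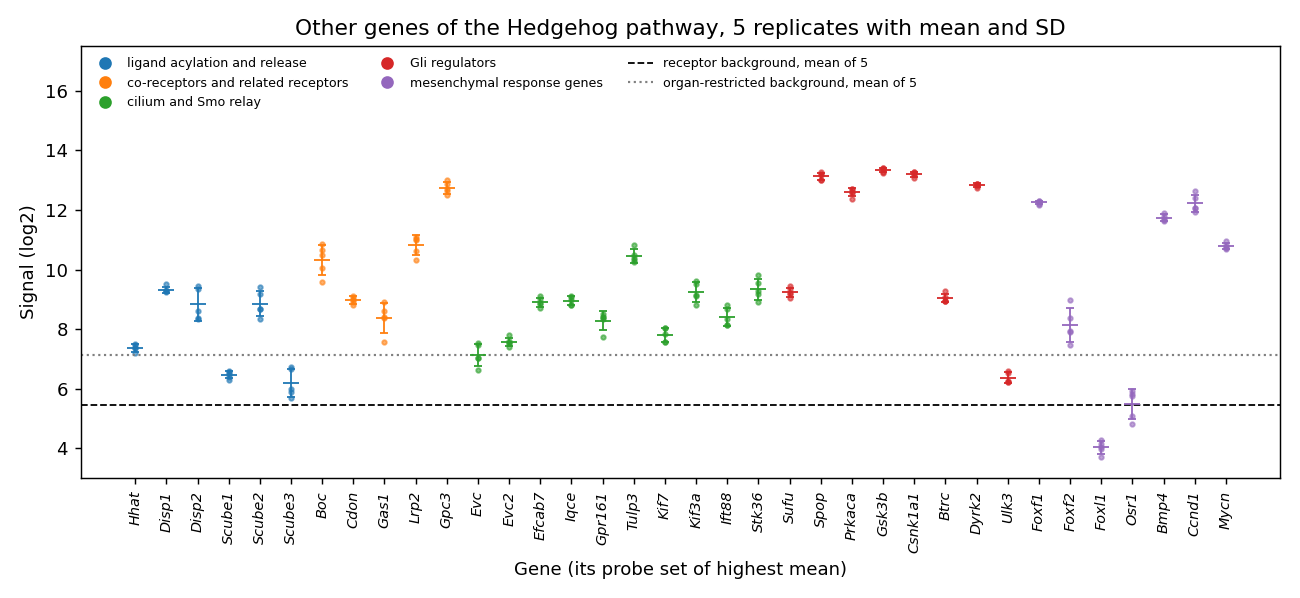
Log2 signal (vertical axis) of 36 other genes of the Hedgehog pathway, each by its probe set of highest mean, with the 5 replicates as points, the mean as a dash and the SD as an error bar, coloured by role. The dashed and dotted lines are the means over arrays of the receptor and the organ-restricted background; Foxl1 and Osr1 are the 2 genes not above the dashed line by the test.

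Genes for making and releasing the ligands were detected in 6 of 6 cases by the receptor background (75.5% of all genes) and 3 of 6 by the stricter one (61.9%). Hhat, the acyltransferase that attaches palmitate to the ligands, averaged 7.37 ± 0.12, and Disp1, the transporter that releases them from the membrane, 9.32 ± 0.11 (SD, n = 5). Disp2, a relative of Disp1, read 9.46, 8.33, 8.37, 9.35 and 8.62, with replicates 1 and 4 apart from the other 3. Scube1, a secreted protein of a family that helps release, averaged 6.47 ± 0.12, below the organ-restricted background.

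All 5 measured co-receptors and related receptors passed both backgrounds, which 75.5% and 61.9% of all genes did. Boc, a co-receptor that binds the ligands, read 10.84, 10.47, 9.59, 10.06 and 10.66, and Gas1, a membrane-anchored co-receptor, 8.38, 8.61, 7.56, 8.41 and 8.90, both lowest in replicate 3. Cdon, the relative of Boc, averaged 8.97 ± 0.12. Lrp2, a large endocytic receptor that binds Shh, averaged 10.81 ± 0.34, with replicate 2 lowest at 10.32.

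Genes of the cilium and of the relay from Smo were above the receptor background in 10 of 10 cases (75.5% of all genes) and above the stricter one in 9 (61.9%). Evc and Evc2, whose products form a Smo-binding complex at the base of the cilium, averaged 7.14 ± 0.37 and 7.57 ± 0.14. Efcab7 and Iqce, whose products anchor that complex there, averaged 8.90 ± 0.15 and 8.96 ± 0.14.

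Regulators of GLI proteins were detected in 8 of 8 cases (75.5% of all genes), 7 by the stricter background (61.9%), with a median SD of 0.12. Sufu, which binds and restrains GLI proteins, averaged 9.24 ± 0.16. Spop, an adaptor for their breakdown, averaged 13.13 ± 0.12, and the kinase genes Prkaca and Gsk3b, whose products mark GLI3 for processing, 12.59 ± 0.13 and 13.34 ± 0.071.

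Genes that Hedgehog signals are known to induce in mesenchyme were detected in 5 of 7 cases by either background, near the shares of all genes, 75.5% and 61.9%. Foxf1, a forkhead factor of lung mesenchyme and endothelium, read 12.30, 12.18, 12.21, 12.27 and 12.30. Its relative Foxf2 read 7.94, 8.36, 7.48, 7.90 and 8.98, high in replicates 2 and 5 and lowest in replicate 3. Foxl1, a forkhead gene of gut mesenchyme, averaged 4.03 ± 0.21 and Osr1, a zinc finger gene of early lung mesenchyme, 5.48 ± 0.50; neither was called (limma adjusted p = 1 and 0.597).

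The order seen in Hhip and Gli1, with replicates 2 and 5 highest and replicate 3 lowest, was found in 4 of the 34 pathway genes above background, or 11.8%, against 5.41% of all probe sets. These 4 were Gas1, Evc and Foxf2, described above, and Scube2 (8.67, 9.16, 8.34, 8.68 and 9.42), another gene of ligand release. They were singled out after their values were seen. The units differ, because each gene entered by its probe set of highest mean while the share is over all probe sets. The choice of probe set matters: Boc 1427516_a_at, which was not the one used, had the order (8.28, 8.54, 7.67, 7.82 and 8.69).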

How the data were processed

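The deposited table holds 1 value per probe set and array. The log2 scale of the deposited values was inferred from their range (2.46 to 15.24). The software, background correction, probe summary and normalization are not stated in the labels. Per the labels' protocols, RNA was extracted with a column kit, amplified with NuGEN Ovation kits, biotin-labelled and hybridised to one-colour arrays. Array medians ran from 7.12 to 7.19, so values were used as deposited.

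Names came from the platform's 2016 annotation, which gives 34958 of the 45101 probe sets a single symbol. The 932 with several symbols and the 9211 that are unnamed here were not used.

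Values minus the receptor background of each array (76 genes, 84 probe sets) entered an intercept-only model (lmFit, eBayes with trend; limma 3.58.1, R 4.3.3) over 34874 probe sets, with Benjamini-Hochberg adjustment. The spread test set each variance against limma's fitted one (trend, robust), as a one-sided F with 4 and 4.60 degrees of freedom. Both tests were checked on simulated data, which does not show how large a spread the second test could call on these arrays. Members and lists were chosen with earlier results of these data known. Named were every Hedgehog probe set, the first 4 measured genes of each pathway sublist and the genes on the smaller side of a background call. Of a marker list at most the first 2 were named, Tagln apart. Genes beyond these came from a rule stated with them or are said to have been chosen after their values were seen. Alternatives changed the background, the scaling, the probe sets used, the filter, the variance trend and the arrays.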

Additional observations from a re-analysis of the deposited data

Results flagged for a closer look

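A sample far from the other 4 was looked for by the ratio of its gap to the whole range, with a critical value of 0.71, in the 21 Hedgehog probe sets and the 36 other pathway genes. It was found in 1 of the 21 and in 2 of the 36, and chance alone flags about 1 in 20 groups. In Dhh 1434959_at, replicate 3 was low at 6.01 while the others read 6.50 to 6.66 (ratio 0.757). The other Dhh probe set, 1422127_at, read 6.33 in replicate 3 and 6.08 to 6.34 in the others. In Disp1 1434795_at, replicate 5 was high at 9.51 while the others read 9.25 to 9.31 (ratio 0.741). The other Disp1 probe set, 1435132_at, read 8.24 in replicate 5 and was highest in replicate 3 at 8.29. In Gpr161 1436459_at, a receptor gene of the cilium, replicate 2 was low at 7.73 while the others read 8.36 to 8.52 (ratio 0.789). The other Gpr161 probe set, 1447353_at, was not above background and was lowest in replicate 3 at 4.75.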

How the results depend on the processing

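Counts of Hedgehog probe sets (19 of 21), Hedgehog genes (9 of 9) and other pathway genes (34 of 36) above background, and of Hedgehog probe sets past the spread test (0 of 21), were recomputed under 15 alternatives. Leaving out each replicate gave 19, 9, 34 and 0 every time (lowest and highest alike). With the organ-restricted background 9 probe sets, 5 Hedgehog genes and 29 pathway genes were called. With probe sets above the median signal alone, 9 probe sets of 5 Hedgehog genes were tested and called. The 99th percentile of the receptor probe sets gave 13 probe sets, 7 genes and 31 pathway genes, and the other settings stayed within 1.5 times the counts above. Fits of 1 value per gene give no count of probe sets.

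Of 550 recomputed levels above background, 521 kept direction and call, 20 lost the call (7 with the 99th percentile and 13 with the organ-restricted background), 2 gained it (Gli3 1450525_at and Osr1, both with the 90th percentile) and 22 changed sign, alone or with the call. With the 99th percentile the signs turned for Shh 1427571_at (-0.058), Ihh (-0.545), Dhh 1422127_at (-0.18), Ptch1 1439663_at (-0.064) and 1450824_at (-0.40), and Osr1 (-0.92). With the organ-restricted background they turned for Shh 1427571_at (-0.80), Ihh (-1.29), Dhh 1434959_at (-0.67) and 1422127_at (-0.92), Ptch1 1439663_at (-0.81) and 1450824_at (-1.15), Smo 1427048_at (-0.0033), Scube1 (-0.67), Evc (-0.0012) and Osr1 (-1.66). With the 90th percentile Smo 1442215_at (0.10) and Gli3 1450525_at (0.32) turned. Osr1, at 0.021 with all arrays, ran from -0.084 to 0.18 when 1 replicate was left out and was -0.0084 without probe set types that match several transcripts. The calls of low-signal probe sets therefore depend on the choice of background. No paired analysis was possible because the series has 1 group. The order of replicates under quantile normalization and median centring was added after the data had been seen and kept its count of 5 probe sets.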

Other observations

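Ccnd1, a cell cycle gene that Hedgehog signals can induce, was highest in replicates 1 and 4 with each of its 3 probe sets. Probe set 1448698_at read 12.63, 12.06, 11.93, 12.41 and 12.08 in replicates 1 to 5, 1417420_at read 10.67, 10.44, 10.09, 10.73 and 10.21, and 1417419_at read 8.50, 7.94, 7.86, 8.59 and 8.17. Disp2 1435404_at had the same 2 replicates highest; its other 2 probe sets, 1444039_at and 1446729_at, averaged 5.29 ± 0.27 and 4.44 ± 0.35 and were not called. Lrp2 was lowest in replicate 2 with both of its called probe sets, which read 10.32 and 9.97 there and at least 10.61 and 10.30 elsewhere. Boc was lowest in replicate 3 with both of its called probe sets, at 9.59 and 7.67. These genes were singled out after their values were seen. None passed the spread test at an adjusted p under 0.05, but 0% of all probe sets did.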
